A study of Mus musculus with 60 samples.

Results

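The 8 genes described here encode the first steps of branched-chain amino acid (BCAA) breakdown and the enzymes that switch it. They are the transaminase genes Bcat1 and Bcat2, the branched-chain ketoacid dehydrogenase genes Bckdha, Bckdhb, Dbt and Dld, the kinase gene Bckdk and the phosphatase gene Ppm1k. They were listed by name for their roles in the pathway, with no threshold on measured values, and symbols were matched through the Ensembl identifiers of the files. All 8 were present in each of the 5 deposited tables, among 22893 genes found in any table, and all 8 passed the filter on low values in every table. RNA was sequenced in 60 mouse libraries from 3 experiments. In the first, wild-type cells were harvested at days 0, 2, 4 and 6 of adipogenic differentiation, with 3 libraries for each day and cell type. The cells were B9, a single immortalized brown preadipocyte line, pBAT, primary brown preadipocytes, and pWAT, primary white preadipocytes, the primary cells coming from newborn pups. In the second, wild-type pBAT cells were differentiated with 1 mM SA (succinylacetone, which blocks a step of heme synthesis), with 10 µM HA (heme-arginate, a soluble form of heme), with both (HA-SA), or with Vehicle, with 4 libraries each. In the third, brown adipose tissue was taken from 4 BAKO females, in which Alas1 is deleted in brown adipocytes alone, and from 4 WT females. Alas1 encodes the enzyme that starts heme synthesis. Ages of the females are not given in the sources used here. The whole depot was sequenced, so the BAKO libraries also hold RNA of cells in which Alas1 was not deleted.

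Leucine, isoleucine and valine are first stripped of their amino group by a branched-chain transaminase, which is cytosolic (Bcat1) or mitochondrial (Bcat2). The resulting ketoacids are decarboxylated in mitochondria by the branched-chain ketoacid dehydrogenase complex, the committed step of breakdown. Its E1 component is built from Bckdha and Bckdhb, its E2 core is Dbt, and its E3 component is Dld, which is shared with the pyruvate and oxoglutarate dehydrogenases. Bckdk phosphorylates E1 and switches the complex off, and Ppm1k removes that phosphate and switches it on. Brown fat is a tissue known for using BCAAs as fuel during heat production.

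The deposited values were read as a log2 scale that compresses low genes, which was inferred from the values. They thus rank a gene across libraries of a table but do not compare genes with each other. Each table was scaled on its own, and tests were made only within a table. A gene was called where the Benjamini-Hochberg adjusted p of limma, over all genes tested in that table, was under 0.05. The labels do not say that libraries of 1 group came from separate cultures in the cell experiments, so those p-values measure the spread between libraries, which may be technical. Alas1 lay between 10.14 and 10.61 in BAKO libraries and between 12.73 and 12.97 in WT libraries. In treated cells Alas1 was higher by 1.29 in SA than in Vehicle (SE 0.05, adjusted p = 7.65e-13), and in HA-SA it fell by 1.24 against SA (adjusted p = 2.31e-11). Ucp1, the heat-producing protein of brown fat, reached 7.65 to 7.85 in B9 and 5.87 to 6.91 in pBAT cells at day 6, and stayed at or under -0.68 in every pWAT library. With SA, Ucp1 differed from Vehicle by -1.90 (SE 0.11, adjusted p = 5.35e-10). Between HA-SA and SA it differed by 0.02 (adjusted p = 0.922), and between BAKO and WT by -0.28 (adjusted p = 0.700). In brown fat the 12 skeletal muscle genes summed to 0.424% of the library total of BAKO replicate 3 (2 to the power of each value). They made up 0.00998% in BAKO replicate 5, 0.0259% in WT replicate 4 and 0.00501% to 0.00597% in the other 5.

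Upstream sequences are shown for the transaminase genes, which moved in opposite directions during differentiation, and for both E1 genes, which moved in opposite directions with SA. Each is the 250 bases before a transcript start in RefSeq, build GRCm38.p6, written 5′ to 3′ on the gene's strand, with AGGTCA, the half-site bound by many nuclear receptors, in capitals on either strand.
Bcat1 first start, chr6:145076158-145076407, minus strand: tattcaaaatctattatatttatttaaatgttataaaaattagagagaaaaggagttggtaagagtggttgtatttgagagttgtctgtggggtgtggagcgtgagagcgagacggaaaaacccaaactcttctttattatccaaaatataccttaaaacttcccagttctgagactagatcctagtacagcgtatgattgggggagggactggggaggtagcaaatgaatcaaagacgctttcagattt
Bcat1 second start, chr6:145048813-145049062, minus strand: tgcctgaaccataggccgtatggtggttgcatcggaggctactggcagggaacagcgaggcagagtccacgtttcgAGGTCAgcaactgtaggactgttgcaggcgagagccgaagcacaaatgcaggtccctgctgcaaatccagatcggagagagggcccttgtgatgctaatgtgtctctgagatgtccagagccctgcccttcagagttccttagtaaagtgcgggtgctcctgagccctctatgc
Bcat2 first start, chr7:45569903-45570152, plus strand: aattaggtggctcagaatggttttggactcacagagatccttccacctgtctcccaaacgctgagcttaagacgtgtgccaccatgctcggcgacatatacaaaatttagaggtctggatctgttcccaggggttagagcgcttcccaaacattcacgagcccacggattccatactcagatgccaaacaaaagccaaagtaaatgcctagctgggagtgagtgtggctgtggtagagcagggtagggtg
Bckdha, chr7:25658762-25659011, minus strand: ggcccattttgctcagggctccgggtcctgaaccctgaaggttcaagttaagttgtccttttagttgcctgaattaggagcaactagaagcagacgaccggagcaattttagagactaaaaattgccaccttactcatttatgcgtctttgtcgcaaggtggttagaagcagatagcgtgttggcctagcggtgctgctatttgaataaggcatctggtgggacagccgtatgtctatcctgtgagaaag
Bckdhb first start, chr9:83924887-83925136, plus strand: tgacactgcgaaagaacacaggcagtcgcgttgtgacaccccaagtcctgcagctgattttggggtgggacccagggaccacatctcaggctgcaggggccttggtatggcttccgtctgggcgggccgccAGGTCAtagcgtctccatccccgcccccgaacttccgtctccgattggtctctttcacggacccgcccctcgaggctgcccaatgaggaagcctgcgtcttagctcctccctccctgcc
The second starts of Bcat2 and Bckdhb, each with 0 matches of AGGTCA, are not printed. RefSeq windows were matched for 7 of the 8 members, 10 windows in all, and Dbt is named only. AGGTCA occurred in 3 of the 10, which were the second start of Bcat1 (174 bases before it), the first start of Bckdhb (119 bases before it) and Ppm1k (124 bases before it). The same letters occurred in 4607 of all 32851 RefSeq windows of this length (14.0%). The longer motif TCAAGGTCA, the extended half-site of estrogen-related receptors, which contains AGGTCA, was in 0 of the 10 and in 0.387% of all windows. These are matches of letters in a short window and not measured binding sites.

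During differentiation all 8 genes changed by day 6 in each cell type, 7 higher and 1 lower. The background was high: 79.2% of 12462 genes were called in B9, 77.5% of 13144 in pBAT and 70.8% of 13057 in pWAT cells, so the count of calls sets no member apart. Genes called higher were 40.5%, 38.3% and 35.3% of those tested in B9, pBAT and pWAT cells, genes called lower were 38.8%, 39.2% and 35.5%, and the median of all genes lay at 0.03, 0.00 and 0.00. The members' median difference, day 6 minus day 0, was 2.11 in B9, 2.53 in pBAT and 1.84 in pWAT cells. The gene that went down was Bcat1 in all 3 cell types.

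The transaminase genes changed in opposite directions. In B9 cells Bcat2 had values of 8.22, 8.38 and 8.15 at day 0, 10.33, 10.53 and 10.29 at day 2, 12.24, 12.20 and 12.26 at day 4, and 11.76, 11.84 and 11.84 at day 6. Bcat1 in the same cells had 11.54, 11.69 and 11.67 at day 0, 9.95, 9.73 and 9.89 at day 2, 8.93, 8.82 and 8.84 at day 4, and 7.52, 7.92 and 7.26 at day 6. No 2 days overlapped for either gene. Bcat2 at day 6 was 11.8-fold its day 0 level in B9, 13.8-fold in pBAT and 7.68-fold in pWAT cells, which are log2 differences of 3.56 (SE 0.07, adjusted p = 4.82e-15), 3.79 (SE 0.07, adjusted p = 4.8e-16) and 2.94 (SE 0.11, adjusted p = 4.46e-12). For Bcat1 the differences were -4.07 in B9 (SE 0.13, adjusted p = 5.72e-13), -3.15 in pBAT (SE 0.11, adjusted p = 1.43e-12) and -3.08 in pWAT cells (SE 0.16, adjusted p = 2.03e-10). Within each library the log2 difference Bcat2 minus Bcat1 averaged 4.24 ± 0.33 at day 6 and -3.38 ± 0.11 at day 0 in B9 cells (SD, n = 3 each). It averaged 4.69 ± 0.14 at day 6 and -2.25 ± 0.17 at day 0 in pBAT cells, and 3.45 ± 0.17 at day 6 and -2.58 ± 0.02 at day 0 in pWAT cells. Its change over time can be read, but its 0 point depends on gene length and on the scale.

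**Figure D1:**
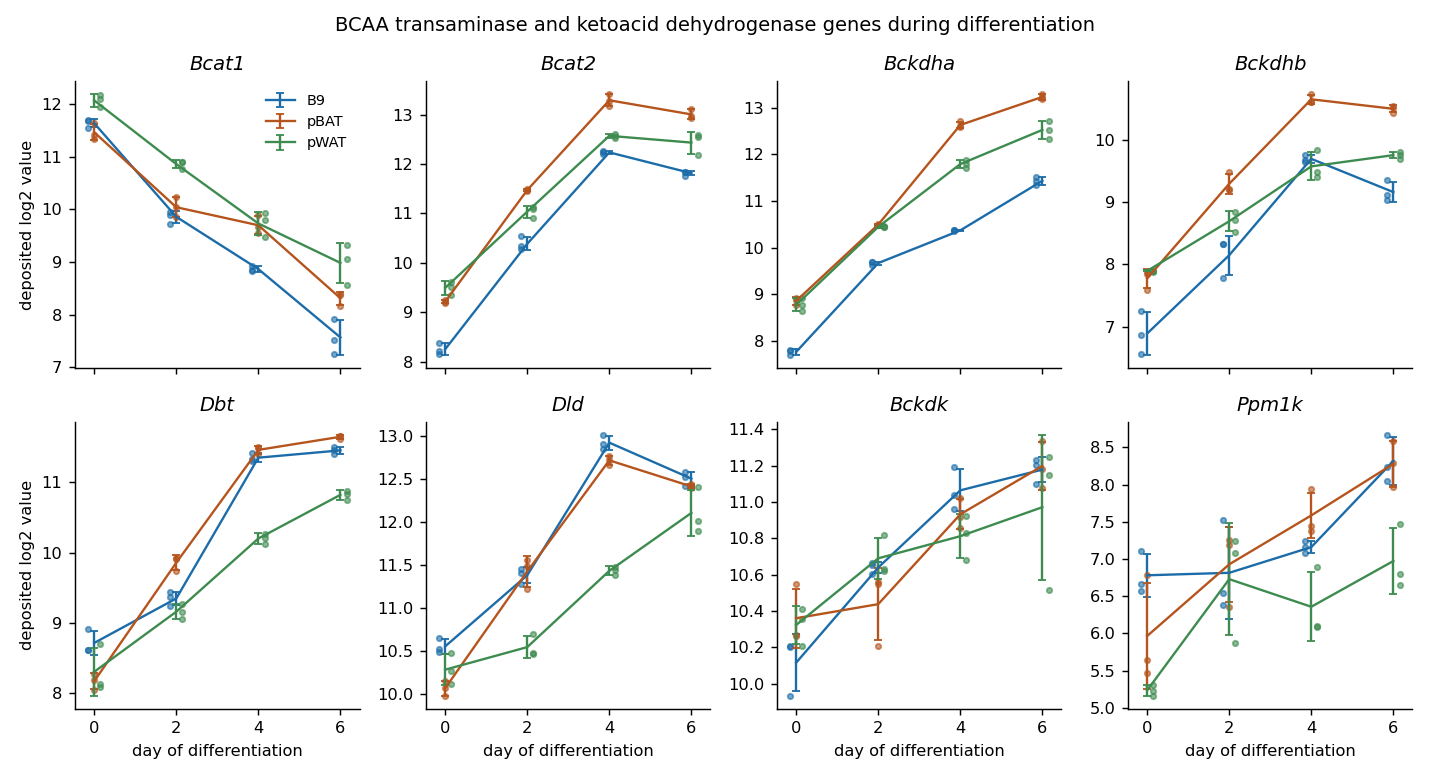
Deposited log2 value of each member (vertical axis, scaled separately in each panel) against day of differentiation in B9, pBAT and pWAT cells. Points are libraries, lines join means and bars are SD (n = 3). Bcat1 falls throughout, Bckdha climbs at each step, and Bcat2 is highest at day 4 in the 3 cell types. The 3 cell types come from separately scaled tables, so heights of the lines are not compared.

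Both E1 genes rose by day 6 in each cell type. The highest mean of Bckdhb was at day 4 in B9 and pBAT cells and at day 6 in pWAT cells. Bckdha and Bckdhb were not tested against each other. In pBAT cells Bckdha, the E1 alpha subunit, had 8.87, 8.77 and 8.93 at day 0, 10.51, 10.48 and 10.49 at day 2, 12.71, 12.60 and 12.58 at day 4, and 13.23, 13.18 and 13.29 at day 6. Bckdhb, the E1 beta subunit, had 7.88, 7.60 and 7.85 at day 0, 9.20, 9.20 and 9.48 at day 2, 10.74, 10.61 and 10.61 at day 4, and 10.43, 10.55 and 10.51 at day 6. Bckdha was higher at every successive day with no overlap, and Bckdhb was highest at day 4. Day 6 minus day 0 was 3.67, 4.38 and 3.75 for Bckdha in B9, pBAT and pWAT cells (SE 0.06, 0.06 and 0.10), or 12.7-fold, 20.8-fold and 13.5-fold. It was 2.27, 2.72 and 1.86 for Bckdhb (SE 0.17, 0.10 and 0.12), and the largest adjusted p of these 6 tests was 1.26e-08. Day 6 minus day 4 was positive for Bckdha in the 3 cell types, at 1.06, 0.60 and 0.73, and all were called. For Bckdhb it was -0.53 in B9 (adjusted p = 0.0162), -0.15 in pBAT and 0.18 in pWAT cells, and only the first was called. Leaving out day 6 replicate 4 ended that B9 call, at -0.47 (adjusted p = 0.0611). Of 1899 exon bases of Bckdha, 1171 (61.7%) overlap B3gnt8 on the other strand in the GENCODE M21 annotation of GRCm38, and the strand setting used in quantification is not given in the sources used here. B3gnt8 itself had 2.90 ± 0.05 at day 6 and 2.57 ± 0.02 at day 0 in B9 cells, and 5.60 ± 0.17 at day 6 and 3.89 ± 0.41 at day 0 in pBAT cells (SD, n = 3 each). In pWAT cells it had 6.49 ± 0.21 at day 6 and 4.19 ± 0.08 at day 0 (SD, n = 3 each), so B3gnt8 was higher at day 6 beside Bckdha in each cell type. The highest mean of B3gnt8 was at day 4 in B9 and at day 2 in pBAT and pWAT cells, and that of Bckdha was at day 6 in the 3 cell types. The part of B3gnt8 reads in the values of Bckdha was not tested. Bcat2 shares 15.9% of its exon bases with 0610005C13Rik and Bcat1 shares 3.62% with Gm26666, each on the other strand, and the other 5 members share none.

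Dbt, the E2 core, was 6.66-fold its day 0 level at day 6 in B9, 11.1-fold in pBAT and 5.71-fold in pWAT cells (log2 differences of 2.74, 3.47 and 2.51, SE 0.08, 0.07 and 0.13). In pBAT cells its values were 8.28, 8.06 and 8.19 at day 0, 9.74, 9.91 and 9.92 at day 2, 11.48, 11.50 and 11.40 at day 4, and 11.67, 11.62 and 11.66 at day 6. Most of the change was thus in place by day 4, and the day 6 minus day 4 difference of 0.19 was not called (adjusted p = 0.0519). Dld, the shared E3 enzyme, changed by 1.95, 2.35 and 1.82 between day 0 and day 6 in B9, pBAT and pWAT cells. Its last step differed in sign. From day 4, Dld fell by 0.42 in B9 (SE 0.06, adjusted p = 9.14e-05) and fell by 0.30 in pBAT cells (SE 0.08, adjusted p = 0.00556). In pWAT cells Dld was higher by 0.67 (SE 0.12, adjusted p = 0.000852). In pWAT cells it had 11.90, 12.02 and 12.41 at day 6 and 11.44, 11.49 and 11.38 at day 4, with no overlap. The difference between cell types was not tested, because the tables were scaled separately.

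Both the kinase and the phosphatase gene rose by day 6, and of the 8 members Ppm1k had the largest standard error in each cell type. Bckdk was higher at day 6 than at day 0 by 1.06 in B9 (SE 0.08), 0.84 in pBAT (SE 0.10) and 0.65 in pWAT cells (SE 0.15), or 2.09-fold, 1.79-fold and 1.57-fold. Among the 7 genes that rose, Bckdk had the smallest difference in each cell type. Ppm1k was higher by 1.54 (SE 0.25), 2.31 (SE 0.31) and 1.74 (SE 0.33), and the largest adjusted p of these 6 tests was 0.00132. In B9 cells Ppm1k had 7.11, 6.57 and 6.66 at day 0, 7.53, 6.38 and 6.54 at day 2, 7.08, 7.24 and 7.15 at day 4, and 8.23, 8.05 and 8.67 at day 6. The first 3 days overlapped and day 6 lay above them all, and the day 6 minus day 4 step was the only one called in B9 cells (1.16, adjusted p = 0.00146). In pBAT cells the call at day 2 (0.96, adjusted p = 0.0141) was lost without any 1 of day 0 replicates 3 and 4 and day 2 replicates 3 and 4 (adjusted p of 0.0558 to 0.0742). The within-library log2 difference Bckdk minus Ppm1k averaged 2.86 ± 0.33 at day 6 and 3.33 ± 0.44 at day 0 in B9, 2.92 ± 0.38 at day 6 and 4.39 ± 0.55 at day 0 in pBAT, and 4.00 ± 0.52 at day 6 and 5.09 ± 0.11 at day 0 in pWAT cells (SD, n = 3 each). These groups overlapped in B9 cells and not in the other two, and with 3 libraries against 3 no exact test of a single value can pass 0.05.

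Step by step, 7 members were called at day 2 against day 0 in B9 cells (69.2% of genes called) and 7 in pBAT cells (66.5%), with Ppm1k missing in B9 and Bckdk in pBAT cells. In pWAT cells 6 were called (52.7%), and Dld (0.26, adjusted p = 0.0858) and Bckdk (0.37, adjusted p = 0.0522) were not. At day 4 against day 2, 7 were called in B9 (59.2%), 7 in pBAT (63.8%) and 6 in pWAT cells (47.9%). Ppm1k was not called in any of the 3, and Bckdk was also not called in pWAT cells. The fall of Bcat1 at that step in pBAT cells (-0.34, adjusted p = 0.016) was lost without day 2 replicate 1 or day 4 replicate 1 (adjusted p of 0.0825 and 0.0753). At day 6 against day 4, 6 were called in B9 (53.4%), 4 in pBAT (43%) and 4 in pWAT cells (31.5%). In that last step Bcat2 fell by 0.42 in B9 (adjusted p = 0.00018) and fell by 0.29 in pBAT cells (adjusted p = 0.00313), and was at -0.14 in pWAT cells without being called. The pBAT fall of Bcat2 was -0.16 under quantile normalization (adjusted p = 0.055).

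Most listed genes of the wider pathway were also higher at day 6, with exceptions in the transport, sister dehydrogenase and lipoylation lists. All 17 genes of the later BCAA steps were called higher in the 3 cell types, with medians of 2.21, 2.60 and 2.22. Aldh6a1, which oxidizes methylmalonate semialdehyde in valine breakdown, was higher by 4.75, 4.86 and 4.70 in B9, pBAT and pWAT cells, and Pccb, a subunit of propionyl-CoA carboxylase, by 2.84, 3.00 and 2.46. Of 14 genes of the pyruvate and oxoglutarate dehydrogenases and their regulators, 11 were higher in B9 and 13 in each primary cell type. Pdhb, the E1 beta subunit of pyruvate dehydrogenase, was higher by 3.10, 3.91 and 4.04, and the gene that was lower in each, named after its values were seen, was the kinase gene Pdk3. Among 9 genes listed for lipoylation, the supply and attachment of the lipoic acid that E2 subunits need, 6, 9 and 8 were higher and 0 were lower. Isca1 of that list, which helps to assemble iron-sulfur clusters, was at 1.52, 2.16 and 1.51. Of 7 transporter genes 6 were higher in B9 and 5 in each primary cell type. Slc25a44, the mitochondrial BCAA carrier, was higher by 1.31, 1.88 and 1.69, whereas the plasma membrane carrier gene Slc7a5 fell by 0.72 in B9, fell by 1.70 in pBAT and fell by 1.71 in pWAT cells. All 8 regulator genes were higher, with Pparg, the master regulator of fat cell formation, at 3.35, 3.90 and 3.45 and Klf15 at 5.47, 3.96 and 3.43.

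Marker genes of cell types moved alongside. In pBAT cells 11 of 11 macrophage genes were called higher, and their sum was 0.0823% to 0.104% of the library at day 6 and 0.0212% to 0.0232% at day 0. In pWAT cells 11 of 11 were higher as well, at 0.128% to 0.145% at day 6 and 0.0144% to 0.0154% at day 0. In B9 cells 2 of the 11 could be tested, 1 higher and 1 lower, and the 7 present in that table summed to 0.000680% to 0.000943% at day 6 and 0.000472% to 0.000581% at day 0, with up to 6 under the filter level of 4. All 5 smooth muscle genes were lower in pBAT and pWAT cells, and 4 of 5 were lower in B9 cells. Their sum was 0.0295% to 0.0343% at day 6 and 0.886% to 0.932% at day 0 in pBAT cells. In B9, a single cell line, their sum was 0.00718% to 0.00874% at day 6 and 0.358% to 0.399% at day 0. All 10 general adipocyte genes were higher in the 3 cell types, with medians of 7.96 in B9, 6.28 in pBAT and 6.58 in pWAT cells. The preadipocyte and fibroblast list went different ways, with 3 higher and 5 lower in B9, 2 higher and 5 lower in pBAT, and 7 higher and 2 lower in pWAT cells. The part of these cell types in the changes of the members was not tested. In bulk libraries a change in the share of a cell type and a change in RNA per cell cannot be told apart.

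Across the 18 group means, each centred on its own table, Bcat1 ran against the other 7 members, with Pearson's r of -0.95 to -0.86. The 7 correlated with one another at 0.76 to 0.98, lowest for Dld with Ppm1k and highest for Bcat2 with Bckdhb. Of 11317 genes tested in all tables, the most alike were Uqcrc2, a subunit of respiratory complex III, for Dld (r = 0.99), Ndufs3, a subunit of complex I, for Dbt (0.99), Ndufc2, of complex I, for Bckdhb (0.99), Sh2b2 for Bcat2 (0.99), Acaa1a for Bckdha (0.99), Fkbp1a for Bcat1 (0.98), Mtfr1l for Bckdk (0.96) and Asah2 for Ppm1k (0.95). Of the 18 means 12 come from the time course, and how much of this likeness they carry was not computed. Means of a table were centred together and so are not independent, and no test was made.

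SA divided the members in pBAT cells. Against Vehicle, Bckdk, Dbt, Bckdhb and Bcat1 fell, Bckdha rose, and Bcat2, Dld and Ppm1k did not pass. That is 5 of 8 called, 4 of them lower, where 41.4% of 12799 genes were called, 20% higher and 21.4% lower. The members' median difference was -0.21, and that of all genes was 0.00.

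Bckdk had 10.46, 10.32, 10.29 and 10.40 in SA libraries, against 10.76, 10.78, 10.85 and 10.84 in Vehicle libraries. Every SA value lay under every Vehicle value, and the kinase gene fell by 0.44 (SE 0.04, adjusted p = 9.09e-08), which is 0.738 of its Vehicle level. Dbt had 11.62, 11.72, 11.78 and 11.74 in SA, against 12.05, 12.19, 12.01 and 12.16 in Vehicle libraries, a fall with no overlap of -0.39 (SE 0.04, adjusted p = 1.39e-06). Bckdhb had 10.69, 10.77, 10.72 and 10.83 in SA, against 11.12, 11.10, 11.13 and 11.08 in Vehicle libraries, a difference of -0.36 (SE 0.04, adjusted p = 3.9e-07). Its partner in E1 went the other way. Bckdha had 13.68, 13.68, 13.64 and 13.64 in SA, against 13.53, 13.55, 13.52 and 13.49 in Vehicle libraries, and was higher by 0.14 (SE 0.04, adjusted p = 0.00794). The rise of Bckdha was 0.09 under quantile normalization (adjusted p = 0.0468), and B3gnt8 on its other strand had 6.49 ± 0.04 in SA and 6.55 ± 0.04 in Vehicle libraries (SD, n = 4 each). The within-library difference Bckdha minus Bckdhb averaged 2.91 ± 0.07 in SA, 3.07 ± 0.04 in HA-SA, 2.55 ± 0.08 in HA and 2.41 ± 0.02 in Vehicle libraries (SD, n = 4 each). This pair was set side by side after its values were seen, so it has no test.

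**Figure D2:**
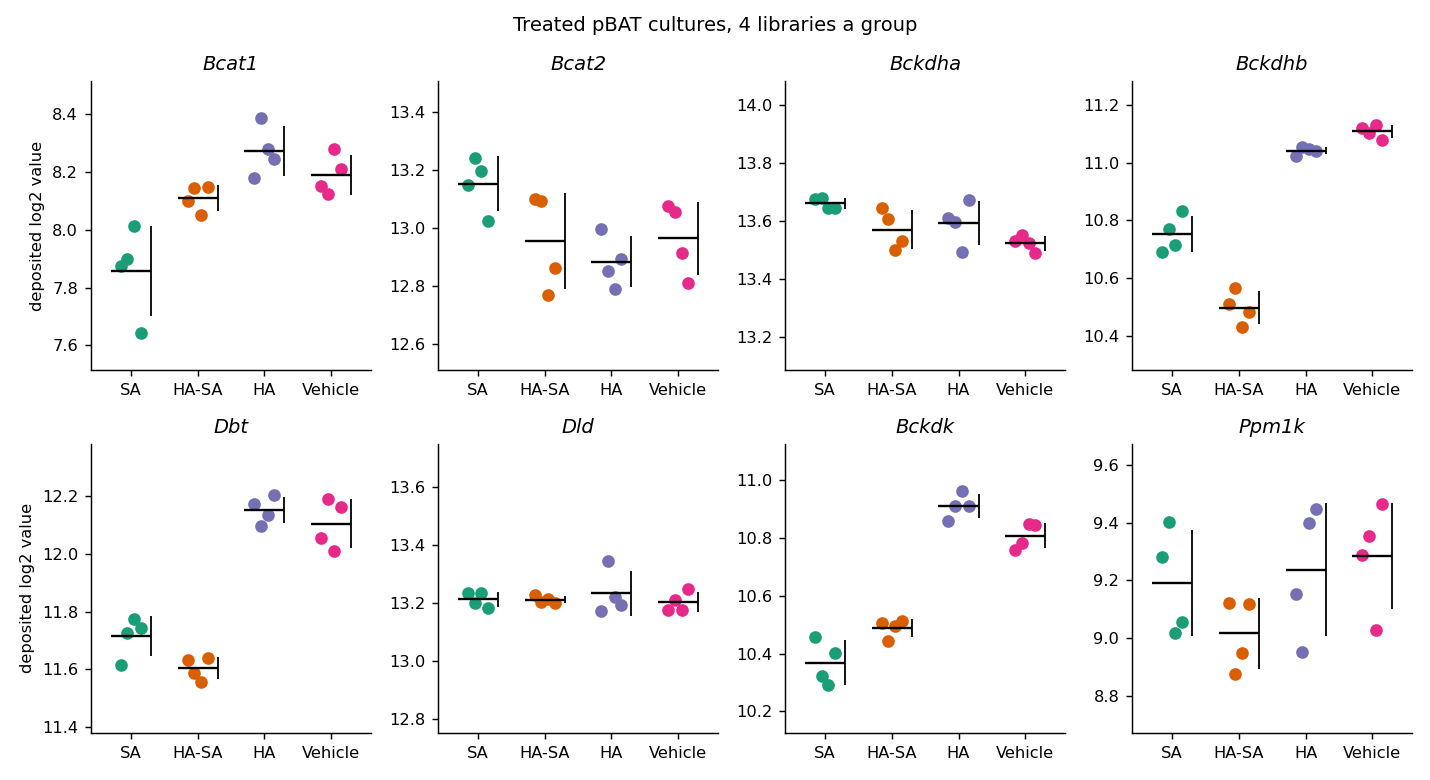
Deposited log2 value of each member (vertical axis) in pBAT cells with SA, HA-SA, HA or Vehicle. Points are libraries, horizontal lines means and vertical bars SD (n = 4). Bckdhb, Dbt and Bckdk are lower in both groups that had SA, with no overlap with HA or Vehicle, while the 4 groups overlap for Dld.

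Bcat1 had 7.87, 7.90, 8.01 and 7.64 in SA, against 8.15, 8.12, 8.28 and 8.21 in Vehicle libraries, a fall without overlap of -0.33 (SE 0.07, adjusted p = 0.000651). Bcat2 had 13.15, 13.24, 13.20 and 13.02 in SA, against 13.08, 13.06, 12.91 and 12.81 in Vehicle libraries. These overlapped, and the difference of 0.19 (SE 0.08, 95% interval 0.03 to 0.35) did not pass (adjusted p = 0.0529). It passed in limma with only the 2 groups in the fit (adjusted p = 0.0347), with a replicate block (0.013) and with median centring (0.0334). Leaving out SA replicate 4, Vehicle replicate 1 or Vehicle replicate 2 also gave a call (adjusted p of 0.0295 to 0.0423). Dld differed by 0.01 (95% interval -0.06 to 0.08) and Ppm1k by -0.09 (95% interval -0.33 to 0.14), so the interval of Ppm1k was the wider one and holds falls close to those of Bcat1 and Bckdhb. Within libraries, Bcat2 minus Bcat1 averaged 5.30 ± 0.09 in SA and 4.77 ± 0.18 in Vehicle libraries, and Bckdk minus Ppm1k averaged 1.18 ± 0.19 in SA and 1.52 ± 0.20 in Vehicle libraries (SD, n = 4 each). Neither pair of groups overlapped, and each exact two-sided permutation test gave p = 0.0286, the smallest that 4 libraries against 4 allow. Adjusted over the 8 such tests made, each was 0.0571.

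With HA added to SA, Bcat1 and Bckdk were higher than with SA alone, and Bckdhb was lower still. Between HA-SA and SA, 3 of 8 members were called, where 24.7% of genes were called. Bcat1 had 8.10, 8.14, 8.05 and 8.15 in HA-SA, against 7.87, 7.90, 8.01 and 7.64 in SA libraries, higher by 0.25 (SE 0.07, adjusted p = 0.0101). Every HA-SA value of Bcat1 lay above every SA value. Bckdk had 10.51, 10.44, 10.49 and 10.51 in HA-SA, against 10.46, 10.32, 10.29 and 10.40 in SA libraries. The groups overlapped at 1 library, and the rise was 0.12 (SE 0.04, adjusted p = 0.0324). That call was lost with no filter on low values (adjusted p = 0.059), with only the 2 groups in the fit (0.0703), and without any 1 of SA replicates 2 and 3 and HA-SA replicates 1, 3 and 4 (0.0676 to 0.106). Bckdhb had 10.51, 10.57, 10.43 and 10.48 in HA-SA, against 10.69, 10.77, 10.72 and 10.83 in SA libraries, a further fall of -0.25 (SE 0.04, adjusted p = 6.89e-05). All HA-SA values of Bckdhb lay under all SA values, which themselves lay under Vehicle. Dbt was at -0.11 (adjusted p = 0.0736), Bcat2 at -0.20 (adjusted p = 0.0643), Bckdha at -0.09 and Ppm1k at -0.17, and none of these passed. Bcat2 minus Bcat1 averaged 4.84 ± 0.15 in HA-SA and 5.30 ± 0.09 in SA libraries, and Bckdk minus Ppm1k averaged 1.47 ± 0.10 in HA-SA and 1.18 ± 0.19 in SA libraries (SD, n = 4 each). Both were again without overlap (exact permutation p = 0.0286, adjusted p = 0.0571 over 8 tests).

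Against Vehicle, HA-SA cells had 3 members lower and 0 higher, where 43.9% of genes were called, 20.9% higher and 23% lower. They were Bckdhb (-0.61, SE 0.04), Dbt (-0.50, SE 0.04) and Bckdk (-0.32, SE 0.04), with a largest adjusted p of 3.64e-06. Bcat1 stood at -0.08 (95% interval -0.22 to 0.06) and Ppm1k at -0.27 (adjusted p = 0.0635). Against HA alone, the same 3 genes were lower, with Bckdhb at -0.54, Dbt at -0.55 and Bckdk at -0.42, where 42.7% of genes were called. These comparisons share libraries with the SA comparison and are not independent of it.

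HA alone changed 0 of 8 members against Vehicle in limma, where 8.97% of genes were called. At an unadjusted p under 0.05 there was 1, Bckdk, at 0.10 (95% interval 0.02 to 0.19, adjusted p = 0.118), and limma without the trend also called 0. Bckdk had 10.86, 10.91, 10.96 and 10.91 in HA libraries and Bckdhb had 11.02, 11.05, 11.05 and 11.04, and neither overlapped Vehicle. The shares of all genes without overlap, and at an unadjusted p under 0.05, were not counted, so neither trait sets a member apart. The 95% intervals of the 8 members together ran between -0.28 and 0.22, the lower bound that of Ppm1k and the upper that of Bcat1. The interaction, which is the HA difference with SA minus that without SA, was called for Bckdhb alone (-0.19, SE 0.05, adjusted p = 0.0304), where 7.67% of genes were called. It was not called with no filter (adjusted p = 0.0588), nor without any 1 of HA replicates 2 and 4, SA replicates 2 and 4, HA-SA replicates 3 and 4 and Vehicle replicate 4 (0.0505 to 0.0673). Without HA replicate 3 or HA-SA replicate 1, Bckdha was called beside it.

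**Figure D3:**
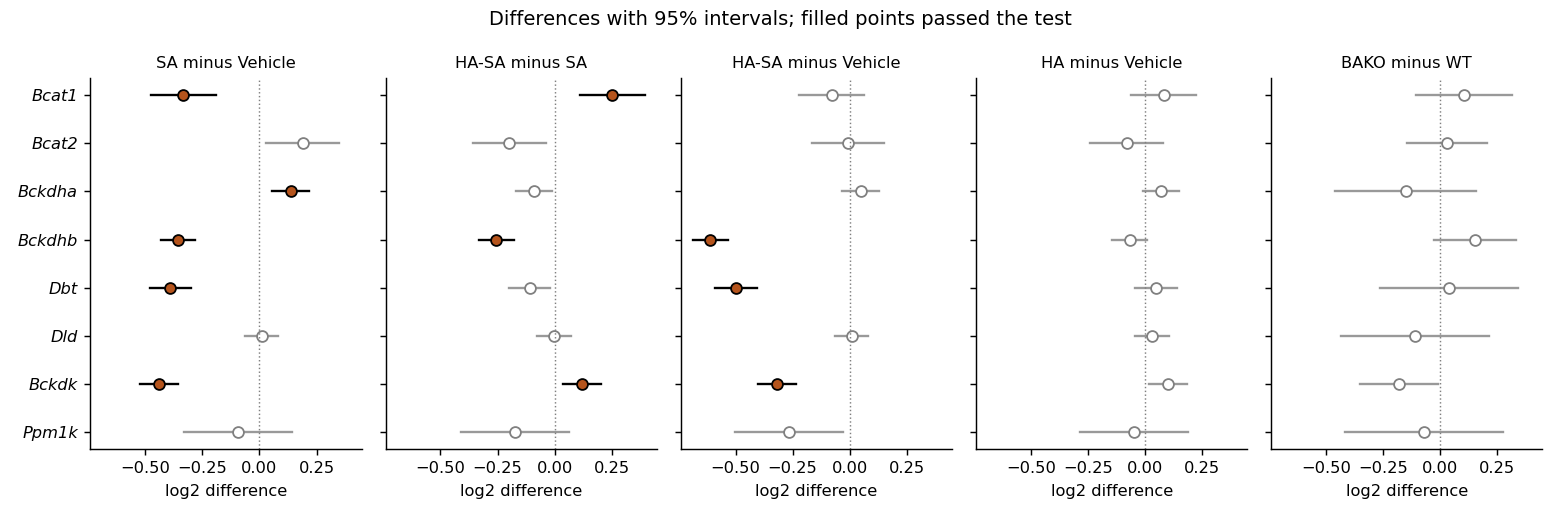
Log2 difference of each member (horizontal axis) in 5 comparisons, with 95% intervals from limma. Filled points passed an adjusted p under 0.05. Bckdhb, Dbt and Bckdk lie left of 0 in both SA comparisons with Vehicle, Bckdha and Bckdhb lie on opposite sides of 0 with SA, and no point is filled for HA or BAKO.

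Of the wider pathway, 4 of 17 later BCAA genes were higher and 6 lower with SA, with a median of -0.03. Pcca, the other subunit of propionyl-CoA carboxylase, was at -0.59 and Mccc2, a subunit of methylcrotonyl-CoA carboxylase, at -0.35, while its partner Mccc1 was at 0.22 and Aldh6a1 at 0.34. Mccc1 and Mccc2, subunits of 1 enzyme, thus moved in opposite directions, as Bckdha and Bckdhb did. Ogdh and Dlst, described below, both fell, and none of these pairs was tested as a pair. Of 14 genes of the sister dehydrogenases 4 were higher and 3 lower. Ogdh, the E1 gene of the oxoglutarate dehydrogenase, fell by 0.41 (adjusted p = 5.58e-08) and Dlst, its E2 gene, fell by 0.15 (adjusted p = 0.00053). The pyruvate dehydrogenase kinase genes split, with Pdk4 at -1.26 and Pdk1 at 0.28. Of the lipoylation genes 4 of 9 were lower and 0 higher, led by Isca1 (-0.31) and Bola3 (-0.36). Of the 8 regulators, Ppargc1b (-0.30), Ppargc1a (-0.26) and Ppara (-0.46) were lower and Mlxipl (0.70) was higher. Between HA-SA and SA, 7 of the 8 regulators were lower, among them Ppargc1a at -0.44 and Esrra at -0.30, and 7 of 17 later BCAA genes were lower and 0 higher.

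Marker genes of cell types moved with the treatments too. Of 11 macrophage genes, 8 were lower and 1 higher with SA, and all 11 were higher in HA-SA than in SA libraries. Their sum was 0.0250% to 0.0269% of the library in SA, 0.0415% to 0.0509% in HA-SA, 0.0403% to 0.0465% in HA and 0.0300% to 0.0349% in Vehicle libraries, and 0 of the 11 was under the filter level in any library. All 7 preadipocyte and fibroblast genes that could be tested were lower with SA, at 0.423% to 0.492% in SA, 0.589% to 0.682% in HA-SA, 0.772% to 0.910% in HA and 0.777% to 0.854% in Vehicle libraries. Of 8 brown adipocyte genes, 6 were lower with SA, at 0.0342% to 0.0368% in SA, 0.0300% to 0.0322% in HA-SA, 0.0606% to 0.0622% in HA and 0.0535% to 0.0555% in Vehicle libraries. Of 10 general adipocyte genes, 8 were higher and 0 lower with SA, at 1.97% to 2.05% in SA and 1.72% to 1.83% in Vehicle libraries. The part of these cell types in the changes of the members was not tested.

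**Figure D4:**
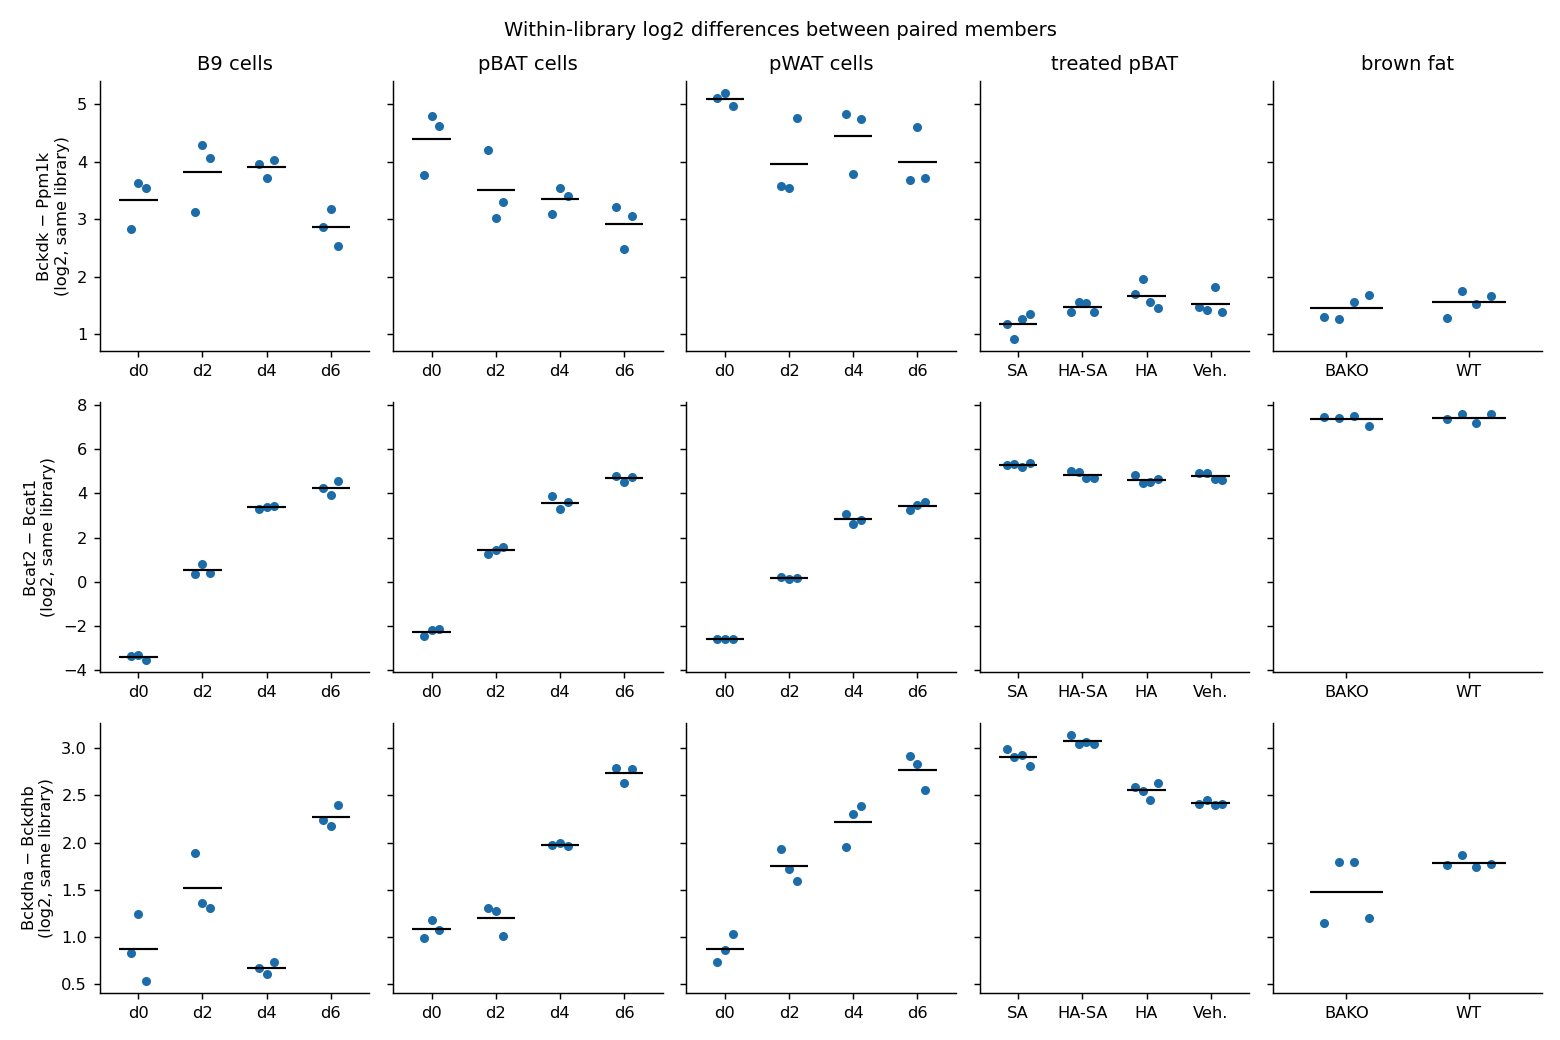
Within-library log2 differences between pairs of members (vertical axis, shared along a row) in the 5 tables. Points are libraries and lines are means. Bcat2 minus Bcat1 climbs with differentiation and is higher in SA than in Vehicle libraries, and among treated pBAT cells Bckdk minus Ppm1k is lowest in SA libraries. Heights are not compared between tables.

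In brown fat, none of the 8 members was called between BAKO and WT females. In limma 15 of 13497 genes were called, or 0.111%, and without the trend 0 members were called as well, with 0 at an unadjusted p under 0.05. With the trend 1 member, Bckdk, had an unadjusted p under 0.05. It had 11.58, 11.74, 11.59 and 11.45 in BAKO, against 11.80, 11.82, 11.72 and 11.75 in WT libraries, a difference of -0.18 (SE 0.08, 95% interval -0.35 to -0.01, adjusted p = 0.556). BAKO replicate 2 lay within the WT range and the other 3 BAKO libraries under it. Bckdhb had 12.22, 11.96, 11.94 and 11.93 in BAKO, against 11.85, 11.90, 11.82 and 11.86 in WT libraries, which did not overlap, and its difference was 0.15 (SE 0.08, 95% interval -0.03 to 0.33, adjusted p = 0.646). Neither passed the test. The shares of all genes at an unadjusted p under 0.05, and without overlap, were not counted, so neither trait sets a member apart.

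Among the other members, Bckdha had 13.37, 13.75, 13.73 and 13.12 in BAKO, against 13.61, 13.77, 13.56 and 13.63 in WT libraries, at -0.15 (95% interval -0.46 to 0.16). Dbt had 12.42, 12.25, 11.98 and 11.95 in BAKO, against 12.42, 12.09, 11.96 and 11.98 in WT libraries, at 0.04 (95% interval -0.26 to 0.34). Dld ranged over 14.17 to 14.74 in BAKO and 14.44 to 14.88 in WT libraries, and Ppm1k over 9.78 to 10.48 in BAKO and 10.08 to 10.51 in WT libraries. Bcat2 ranged over 11.54 to 11.66 in BAKO and 11.44 to 11.70 in WT libraries, at 0.03 (95% interval -0.14 to 0.21). Bcat1 lay near the filter level, at 4.12 to 4.48 in BAKO and 4.02 to 4.26 in WT libraries, where the deposited scale shrinks differences. Bckdk minus Ppm1k averaged 1.45 ± 0.20 in BAKO and 1.56 ± 0.20 in WT libraries, and Bcat2 minus Bcat1 averaged 7.36 ± 0.20 in BAKO and 7.43 ± 0.19 in WT libraries (SD, n = 4 each). Exact permutation tests gave p = 0.514 and p = 0.571, both 0.571 after adjustment over 8 tests.

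**Figure D5:**
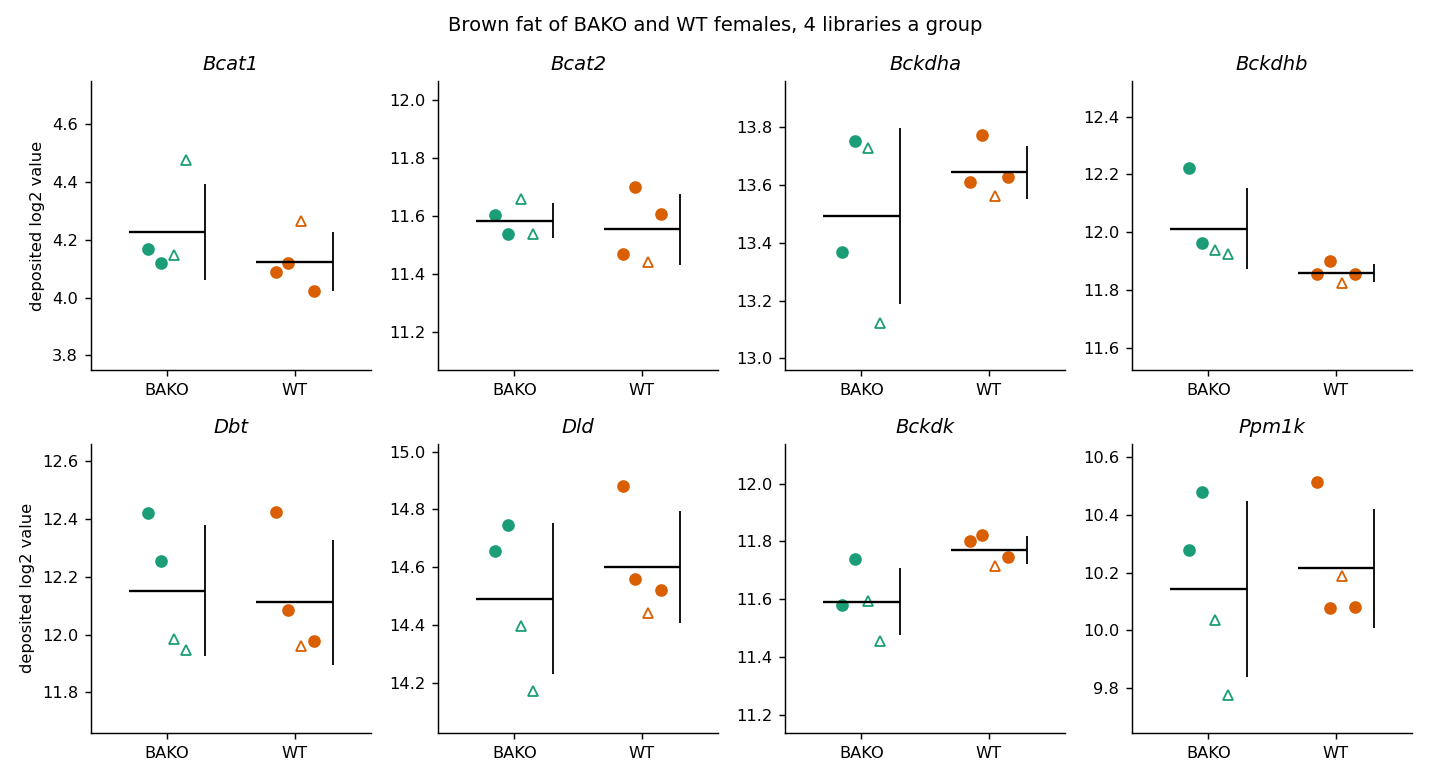
Deposited log2 value of each member (vertical axis) in brown fat of BAKO and WT females. Points are libraries, horizontal lines means and vertical bars SD (n = 4). Open triangles mark the 3 libraries with raised skeletal muscle genes. The groups overlap for every member but Bckdhb, which was not called.

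The 3 libraries with raised skeletal muscle genes were BAKO replicates 3 and 5 and WT replicate 4. Without all 3, a setting chosen after the muscle values were seen, 0 of 8 members were called, with differences between -0.13 for Bckdk and 0.22 for Bckdhb. Without the 2 BAKO libraries alone, 0 were called, and Ppm1k was at 0.17, against -0.07 with all libraries, and Dbt at 0.23, against 0.04. No list of the pathway had a call either: 0 of 17 later BCAA genes, 0 of 14 sister dehydrogenase genes, 0 of 9 lipoylation genes, 0 of 7 transporters and 0 of 8 regulators. At an unadjusted p under 0.05 these lists held 1, 3, 1, 1 and 1 gene. The share of all genes at that threshold was not counted, so these counts set no list apart. The lowest adjusted p in the later BCAA list was that of Ivd, isovaleryl-CoA dehydrogenase of leucine breakdown, at -0.24 (adjusted p = 0.504).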

How the data were processed

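Values were deposited by the authors as 5 tables of normalized log2 expression per gene, 1 for each cell type of the time course and 1 for each other experiment, each normalized on its own. The tools kallisto and DESeq2 and the GRCm39 build are named, without versions, in the submitters' processing notes. Libraries for the first 2 experiments were stranded mRNA libraries per the labels' protocols. The tables hold no counts, so read depth is unknown and no counting interval is given.

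Groups came from the sample labels. limma 3.58.1 (R 4.3.3) with a trended variance was fitted to all libraries of a table with 1 mean per group, over genes whose highest group mean was at least 4, and tested on simulated data. Within-library differences were tested with exact permutation tests (SciPy 1.17.1). Alternatives were other filters, only the compared groups, no trend, median centring, quantile normalization, a replicate block and leaving out each library.

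The members, lists and tests were chosen with earlier results of these data known. All 8 members were tested in every comparison, but not every member is printed for each. Alas1 and Ucp1 are given for treated cells and brown fat, and Ucp1 also for day 6. The text also gives leading genes of the lists by adjusted p (at most 4 per comparison) and the genes most alike in pattern. B3gnt8 was added after its overlap was found.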

Additional observations from a re-analysis of the deposited data

Results flagged for a closer look

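Of 72 sets of 4 libraries, 2 held a library far from the other 3, where chance would give about 1 in 20. Bcat1 in BAKO replicate 5 was 4.48, with the other 3 at 4.12 to 4.17, and this library also had raised skeletal muscle genes. BAKO replicate 3, which had the highest sum of skeletal muscle genes, had a Bcat1 value of 4.15. The part of muscle RNA in the Bcat1 values was not tested. Bckdhb in BAKO replicate 1 was 12.22, with the others at 11.93 to 11.96, so the separation of BAKO from WT for this gene is widest in that library. For Bckdhb the HA difference depended on SA (interaction -0.19, adjusted p = 0.0304 in limma), and the call was lost in several settings. Dld moved in opposite directions between days 4 and 6, at -0.42 in B9, -0.30 in pBAT and 0.67 in pWAT cells, every library of each later group lying on 1 side of the earlier one. That difference between cell types was not tested.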

How the results depend on the processing

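Of 152 member differences 93 were called. Of these, 6 lost the call in at least 1 setting, 17 uncalled ones gained it in at least 1, and 0 of the called ones reversed. Fitting only the compared groups called 7 members at day 6 against day 4 in pBAT cells, against 4. With no filter the interaction of SA and HA had 0 members, against 1, and leaving out 1 library gave 0 to 2. With the ratio as a row in limma, Bckdk minus Ppm1k for SA against Vehicle (-0.34, adjusted p = 0.0151) and Bcat2 minus Bcat1 for SA against Vehicle (0.52, adjusted p = 0.000169) and for HA-SA against SA (-0.45, adjusted p = 0.00159) passed 0.05, which the exact tests did not after adjustment (0.0571 each). Bckdk minus Ppm1k for HA-SA against SA, which had the same exact p, did not pass in that limma fit. With 4 libraries against 4 the exact p cannot go under 0.0286, and each of these results was at that floor. A larger difference could not have lowered it, so the exact tests cannot grade these differences further. For BAKO, fitting only the compared groups is the main fit itself. With the replicate block, 8 members were called at day 4 against day 2 in pBAT cells, 7 at day 2 against day 0 in pWAT cells, 6 for SA against Vehicle and 4 for HA-SA against SA, each 1 more than without it, and the other counts were the same. In BAKO against WT the block gave 0 calls, as without it, and 3 members at an unadjusted p under 0.05, against 1. The share of all genes at that unadjusted threshold was not counted. Deviations of same-numbered libraries correlated at a median of 0.32 (-0.02 to 0.48) over the 3 pairs of that table, and at medians of 0.00 to 0.02 in the other 4 tables, where the lowest was -0.18. In each table at least 1 pair was not above 0.1, so the numbers were not taken as a pairing. In brown fat, BAKO and WT libraries with different numbers correlated at a median of -0.11. With only 3 same-numbered pairs, whether the numbers go together there cannot be settled. Bcat2 with SA was among the gains (adjusted p = 0.013). Quantile normalization moved the median of all genes by more than 0.1 only at day 6 against day 0 in pWAT cells. Read depth is unknown, and the deposited scale shrinks low values, which touches Bcat1 in brown fat.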
